A study of Mus musculus with 8 samples.

Results

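Neurogenic bHLH factors and genes of intermediate progenitors were examined in E15.5 hippocampi of IUGR and sham control offspring. The group holds 9 genes chosen by name from the 16397 genes of the count table. In order of the differentiation cascade, they are Neurog1 and Neurog2 (proneural factors), Eomes, Insm1 and Btg2 (intermediate progenitors), Neurod1 and Neurod4 (differentiation factors) and Neurod2 and Neurod6 (postmitotic neurons). All 9 were found and all 9 passed the limits on counts. IUGR offspring came from C57Bl/6J dams that received a pump with U-46619, a thromboxane A2 analog that raises maternal blood pressure, at E12.5. Sham offspring came from dams that received a pump with the vehicle, dilute ethanol, on the same day, so surgery and vehicle were shared by both groups. RNA was taken from hippocampi of both sexes, with 4 libraries in each group. The IUGR libraries are named T1-1, T1-3, T1-4 and T1-5, and the sham libraries S1-4, S1-6, S3-1 and S3-4. The meaning of the prefixes T1, S1 and S3 and the dam of each sample are not given in the sources used here, so p-values measure only the spread between these samples.

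In the dorsal telencephalon, neurons arise from radial glia along a relay of transcription factors. Neurog1 and Neurog2, which are held down by Notch signaling through Hes repressors, commit a radial glial cell to the neuronal lineage. The daughter cell becomes an intermediate progenitor that expresses the T-box factor Eomes (Tbr2), and factors of the Neurod family follow as its progeny leave the cell cycle and become glutamatergic neurons. bHLH factors pair with E proteins such as Tcf3, Tcf4 and Tcf12 and bind the E-box, CANNTG. In the hippocampus at this age, the relay feeds the pyramidal fields and the first granule neurons of the dentate gyrus.

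Promoters are shown for Neurog2 and Eomes, the pair of genes with the highest correlation between libraries (given below), and for Neurod2 and Neurod6, the genes at the end of the relay. RefSeq start sites on GRCm38.p6 were listed for 8 of the 9 genes, with 2 start sites for Neurod4, and the exception was Insm1. Each sequence holds the 250 bases before the start site, 5′ to 3′ on the strand of the gene, and capitals mark an E-box.
Neurog2: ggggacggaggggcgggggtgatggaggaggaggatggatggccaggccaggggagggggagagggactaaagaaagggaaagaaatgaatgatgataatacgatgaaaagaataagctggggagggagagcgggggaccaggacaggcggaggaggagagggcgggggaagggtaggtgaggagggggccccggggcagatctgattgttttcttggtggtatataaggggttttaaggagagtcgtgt
Eomes: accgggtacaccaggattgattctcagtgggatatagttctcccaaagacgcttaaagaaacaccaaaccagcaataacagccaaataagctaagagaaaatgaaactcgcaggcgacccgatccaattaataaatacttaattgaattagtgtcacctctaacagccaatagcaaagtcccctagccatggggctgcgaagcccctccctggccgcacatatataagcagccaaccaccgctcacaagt
Neurod2: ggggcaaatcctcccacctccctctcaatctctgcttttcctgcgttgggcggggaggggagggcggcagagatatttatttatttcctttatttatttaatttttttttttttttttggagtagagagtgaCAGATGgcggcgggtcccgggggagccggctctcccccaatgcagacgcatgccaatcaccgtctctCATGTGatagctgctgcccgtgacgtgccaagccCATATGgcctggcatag
Neurod6: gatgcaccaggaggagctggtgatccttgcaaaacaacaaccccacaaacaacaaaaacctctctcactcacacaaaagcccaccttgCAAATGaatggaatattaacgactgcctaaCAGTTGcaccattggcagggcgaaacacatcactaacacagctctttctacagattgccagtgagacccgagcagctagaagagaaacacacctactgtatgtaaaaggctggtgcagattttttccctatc
The Neurog2 sequence lies at chr3:127632886-127633135 on the plus strand and the Eomes sequence at chr9:118477939-118478188 on the plus strand. The Neurod2 sequence lies at chr11:98329646-98329895 on the minus strand and the Neurod6 sequence at chr6:55681264-55681513 on the minus strand. The motif CANNTG, which reads the same on both strands, was searched with overlaps allowed, and 66.2% of 32851 mouse promoters of this length hold at least 1. Neurod2 has 3, starting 118 (CAGATG), 51 (CATGTG) and 17 (CATATG) bases before the start site, and Neurod6 has 2, at 162 (CAAATG) and 132 (CAGTTG) bases. The form CAGATG, searched on both strands, is held by 14.4% of all promoters and by 1 of the 9 sequences of these genes. Neurod1 has 1 E-box, and none lies in the windows of Neurog1, Neurog2, Eomes, Btg2 or Neurod4. The N-box CACNAG, a motif of Hes repressors, was also searched on both strands and is held by 36.7% of all promoters. Eomes has 2, Neurod6 has 3, and Neurod4 has 2 and 1 at its start sites, whereas Neurog1, Neurog2, Btg2, Neurod1 and Neurod2 have none. The windows of the 2 Neurod4 start sites overlap and share 1 of these N-boxes. A match of these letters is a description of the sequence only.

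None of the 9 genes passed the test for a difference between IUGR and sham hippocampi. Counts were tested with edgeR's quasi-likelihood test. To be called, a gene needed a Benjamini-Hochberg adjusted p no larger than 0.05, over 13707 tested genes, and a log2 fold change of 1 or more up or down. Over all tested genes, 200 were called (1.46%), of which 186 were lower (1.36%) and 14 higher (0.102%) in IUGR, against 0 of the 9. The adjusted p alone was passed by 213 genes (1.55%), against 0 of the 9. DESeq2's Wald test and limma-voom also called 0 of the 9. An unadjusted p under 0.05 was reached by 1 of the 9, against 11.1% of all tested genes. That gene was Neurod1, which was lower in IUGR, as were 6.62% of all tested genes at that limit. The 4 IUGR values and the 4 sham values overlapped for all 9 genes, whereas 7.14% of all tested genes did not overlap. The mean was lower in IUGR for 6 genes and higher for 3, beside 55.5% lower over all tested genes. The median log2 fold change of the 9 was −0.09, against −0.02 for all tested genes. With a library left out, the median of the 9 was between −0.36 (without S1-4) and 0.21 (without S3-4). The number lower in IUGR was then between 1 (without S3-4) and 8 (without T1-1). The 95% intervals of the fold changes were wide for most of the group, and only those of Insm1 and Btg2 lay within a log2 fold change of −1 to 1. Fold changes are given below on the log2 scale as IUGR over sham, and levels as CPM (counts per 1000000 counts, with library sizes adjusted by TMM). The 4 IUGR libraries held 12919546 to 16672463 counts and the 4 sham libraries 11212632 to 15405748. In bulk RNA, fewer cells of a type and less RNA per cell cannot be told apart.

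**Figure D1:**
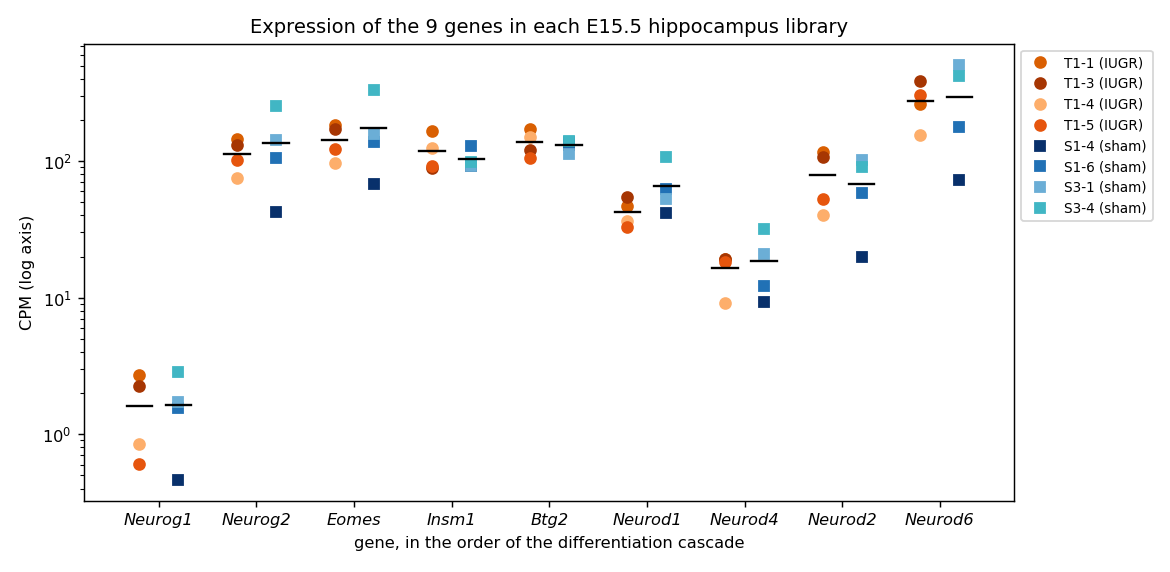
CPM (log axis) of the 9 genes in each library, with IUGR as circles, sham as squares and a black line at the mean of each group (n = 4). The IUGR and sham points overlap for all 9 genes, and S1-4 is the lowest library for 5 of them and S3-4 the highest for 5.

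Neurog1 and Neurog2 start the relay. Neurog1 was close to the lower limit of the counts, with 5 to 40 reads per library. Its CPM was 2.70 (T1-1), 2.27 (T1-3), 0.843 (T1-4) and 0.608 (T1-5) in IUGR and 0.462 (S1-4), 1.56 (S1-6), 1.73 (S3-1) and 2.85 (S3-4) in sham hippocampi. Both groups therefore held libraries with high and with low levels, and the means were 1.61 ± 1.04 and 1.65 ± 0.98 (SD, n = 4 each). The log2 fold change was −0.04 (SE 0.58, 95% interval −1.33 to 1.24), so that a difference of 2-fold in either direction was not detectable at this depth and spread. Neurog2 was far more abundant. Its CPM was 144 (T1-1), 132 (T1-3), 74.9 (T1-4) and 102 (T1-5) in IUGR and 42.2 (S1-4), 106 (S1-6), 142 (S3-1) and 253 (S3-4) in sham. The lowest and the highest value were both sham, and the IUGR values lay between them. The log2 fold change of Neurog2 was −0.26 (SE 0.43, 95% interval −1.21 to 0.69, adjusted p = 0.9995 by edgeR). The exact two-sided permutation test of its log2 CPM gave p = 0.914, in a design whose smallest possible p is 0.0286.

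Eomes, the defining marker of intermediate progenitors, followed the same order of libraries as Neurog2 with 1 exchange of neighbors in rank. Its CPM was 183 (T1-1), 171 (T1-3), 96.2 (T1-4) and 122 (T1-5) in IUGR and 67.6 (S1-4), 138 (S1-6), 158 (S3-1) and 329 (S3-4) in sham hippocampi. The sham values again enclosed the IUGR values. The mean was 143 ± 40.8 in IUGR and 173 ± 111 in sham (SD, n = 4 each), with a log2 fold change of −0.28 (SE 0.40, 95% interval −1.16 to 0.61, adjusted p = 0.9995 by edgeR, exact permutation p = 0.886). The upper end of that interval is 1.52-fold and the lower end 0.447-fold of the sham level. The direction rested on S3-4, and without this library the log2 fold change was 0.24 for Eomes, 0.23 for Neurog2 and 0.36 for Neurog1. The sign of Neurog1 also turned without T1-4 (0.16) or T1-5 (0.23). Eomes overlaps a predicted gene on the opposite strand, and whether reads were counted by strand is not given in the sources used here.

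Insm1 and Btg2 were the steadiest of the 9 genes. Insm1 encodes a zinc finger factor that promotes the formation of basal progenitors. Its CPM was 166 (T1-1), 89.2 (T1-3), 124 (T1-4) and 92.1 (T1-5) in IUGR and 92.5 (S1-4), 130 (S1-6), 91.5 (S3-1) and 97.9 (S3-4) in sham. Only T1-1 lay above the highest sham library, and the log2 fold change was 0.19 (SE 0.21, 95% interval −0.27 to 0.66, adjusted p = 0.9995 by edgeR). Btg2 (Tis21) encodes an antiproliferative protein of progenitors that are about to produce neurons. Its CPM was 173 (T1-1), 120 (T1-3), 149 (T1-4) and 105 (T1-5) in IUGR and 131 (S1-4), 138 (S1-6), 112 (S3-1) and 139 (S3-4) in sham. The IUGR libraries enclosed the sham libraries, with a log2 fold change of 0.07 (SE 0.16, 95% interval −0.29 to 0.43). The interval of the ratio was 0.818 to 1.35 for Btg2 and 0.828 to 1.58 for Insm1, so neither reached 2-fold in either direction. These intervals are not adjusted over the genes and measure only the spread between these libraries. Without T1-1 the log2 fold change was −0.03 for Btg2 and 0.02 for Insm1.

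Neurod1, which drives terminal differentiation and is needed for dentate granule cells, had the largest difference of the group. Its CPM was 47.2 (T1-1), 54.5 (T1-3), 36.6 (T1-4) and 32.7 (T1-5) in IUGR and 41.4 (S1-4), 62.2 (S1-6), 53.2 (S3-1) and 107 (S3-4) in sham. The 2 lowest values were IUGR and the 2 highest were sham, and the other 4 interleaved. The mean was 42.7 ± 9.94 in IUGR and 66.0 ± 28.8 in sham (SD, n = 4 each), or 0.647-fold by the fit. The log2 fold change was −0.63 (SE 0.28, 95% interval −1.25 to −0.002), with an unadjusted p of 0.0494 and an adjusted p of 0.447 by edgeR, and the exact permutation test gave p = 0.143. DESeq2 gave an adjusted p of 0.365, the lowest of any of the 9 genes in any alternative. S3-4 carried much of the difference, and without it the log2 fold change was −0.29 (unadjusted p = 0.211 by edgeR). The annotation of Neurod1 overlaps that of Cerkl on the same strand, which had only 6 to 35 reads per library. Neurod4 (Math3), a related differentiation factor, had a CPM of 19.0 (T1-1), 19.3 (T1-3), 9.10 (T1-4) and 18.2 (T1-5) in IUGR and 9.34 (S1-4), 12.2 (S1-6), 21.02 (S3-1) and 32.0 (S3-4) in sham. T1-4 and S1-4 were nearly equal at the low end, and the 2 highest values were sham. The log2 fold change of Neurod4 was −0.19 (SE 0.38, 95% interval −1.02 to 0.65), and it was 0.21 without S3-4 and 0.01 without T1-4.

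Neurod2 and Neurod6 mark glutamatergic neurons that have left the cell cycle. The CPM of Neurod2 was 117 (T1-1), 107 (T1-3), 40.0 (T1-4) and 52.7 (T1-5) in IUGR and 19.7 (S1-4), 58.4 (S1-6), 103 (S3-1) and 91.0 (S3-4) in sham. Each group held a pair of libraries near 100 CPM and a pair at or below 58.4, and the log2 fold change was 0.22 (SE 0.47, 95% interval −0.83 to 1.27). It turned to −0.04 without S1-4 and to −0.01 without T1-1. Neurod6 (Nex) was the most abundant of the 9 genes and the most variable, with a CPM of 263 (T1-1), 383 (T1-3), 154 (T1-4) and 303 (T1-5) in IUGR and 72.5 (S1-4), 177 (S1-6), 507 (S3-1) and 421 (S3-4) in sham. The 2 highest values and the lowest were sham. The log2 fold change of Neurod6 was −0.09 (SE 0.50, 95% interval −1.21 to 1.02), and it was 0.30 without S3-1, 0.13 without S3-4 and 0.10 without T1-4.

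**Figure D2:**
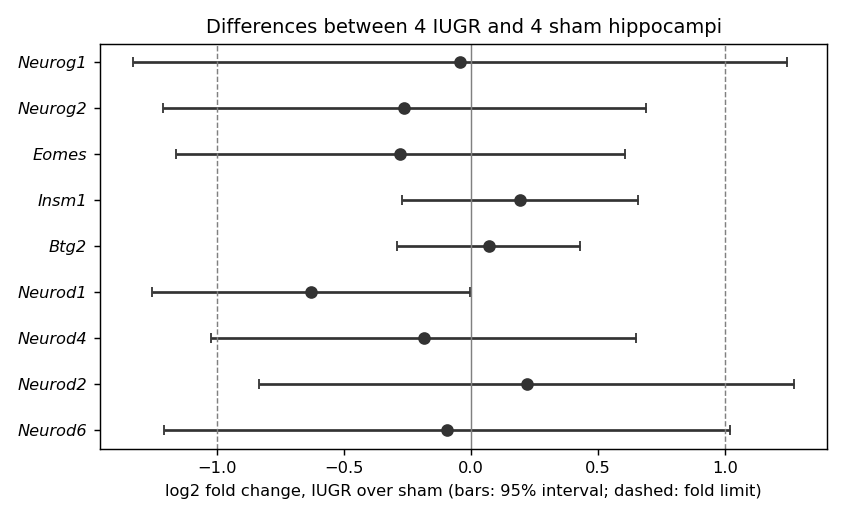
Log2 fold change of each gene, IUGR over sham (4 libraries each), with bars for the 95% interval and dashed lines at the fold limit of −1 and 1. The intervals of Insm1 and Btg2 lie inside the dashed lines, and the other 7 reach past at least 1 of them, with that of Neurod1 ending at −0.002.

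Per kilobase of exon, which allows levels to be set side by side between genes, Neurod6 was highest in sham hippocampi with 137 ± 94.7 CPM per kilobase (SD, n = 4). Neurog2 (60.9 ± 39.6), Btg2 (47.5 ± 4.55), Eomes (41.7 ± 26.7), Insm1 (33.2 ± 5.89), Neurod1 (24.2 ± 10.6) and Neurod2 (21.6 ± 11.8) followed. From Neurod6 down to Neurod2, the ranges of mean ± SD of neighbors in this order overlapped. Neurod4 had 5.57 ± 3.05 and Neurog1 0.978 ± 0.580 CPM per kilobase, and both means lay below the lowest sham library of each of the other 7 genes. In IUGR hippocampi Neurod6 was again highest (128 ± 44.2), followed by Neurog2 (50.8 ± 14.01), Btg2 (49.9 ± 10.97), Insm1 (38.0 ± 11.5), Eomes (34.4 ± 9.81), Neurod2 (25.2 ± 12.2) and Neurod1 (15.7 ± 3.64). Neurod4 (4.90 ± 1.46) and Neurog1 (0.952 ± 0.614) were lowest there too. The order in the groups differed by the exchange of Eomes with Insm1 and of Neurod1 with Neurod2, and in each case the ranges of mean ± SD overlapped.

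The spread between libraries of the same group was large for most of these genes. The SD of log2 CPM within groups was 0.99 for Neurod6, 0.95 for Neurog1, 0.93 for Neurod2, 0.82 for Neurog2 and 0.73 for Eomes, beside a median of 0.28 over all tested genes. In percentiles of all tested genes, these are 97.0 for Neurod6, 96.6 for Neurog1, 96.5 for Neurod2, 95.1 for Neurog2 and 93.1 for Eomes, followed by 91.3 for Neurod4 and 80.01 for Neurod1. Insm1 lay at percentile 63.9 and Btg2 at 42.02. For 7 of the 9 genes the ratio of the highest to the lowest library was larger in sham than in IUGR. It was 6.9998 in sham against 2.48 in IUGR for Neurod6, 5.98 against 1.93 for Neurog2 and 4.87 against 1.90 for Eomes. The exceptions were Insm1 (1.42 in sham, 1.86 in IUGR) and Btg2 (1.24 and 1.64). S1-4 was the lowest of the 8 libraries for 5 genes, and S3-4 was the highest for 5.

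Several of the 9 genes varied together from library to library. Log2 CPM was correlated over the 8 libraries for all 36 pairs, with exact permutation tests adjusted over the 36. For Pearson's r, 13 pairs had an adjusted p of at most 0.05, all of them positive, and 4 pairs did for Spearman's rho. The lowest r of the 13 was 0.805, a value reached by 36.1% of the 36 pairs and by 2.32% of all 93934071 pairs of tested genes. That limit was taken from these same pairs, and the tested genes were not matched to the 9 in spread. The shares are therefore a description and not a test. Of the 13 pairs, 12 lay among the 6 genes Neurog1, Neurog2, Eomes, Neurod4, Neurod2 and Neurod6, which form 15 pairs with r between 0.69 and 0.99. None of the 8 pairs with Neurod1 passed. Its highest value was with Eomes (r = 0.798, exact permutation p = 0.0239, adjusted p = 0.0574, rho = 0.690), and its r with Neurod6 was 0.425. Once group means were removed, these were 0.915 and 0.597, and r was 0.870 with Neurog1 and 0.853 with Neurog2. It was then 0.727 with Neurod4, 0.712 with Neurod2, 0.302 with Btg2 and 0.120 with Insm1. Neurog2 and Eomes, neighbors in the relay, had the highest value, with r = 0.985 (exact permutation p = 0.0001, adjusted p = 0.0036) and rho = 0.976 (exact permutation p = 0.0004, adjusted p = 0.0071). With S1-4 and S3-4 left out, the 2 libraries farthest from the median of Neurog2, r was 0.973. Neurog1 and Eomes had r = 0.886 (exact permutation p = 0.0007, adjusted p = 0.0112), and Neurog2 and Neurod4 had r = 0.914 (exact permutation p = 0.0011, adjusted p = 0.0112). Neurod2 and Neurod6 had r = 0.889 (exact permutation p = 0.0054, adjusted p = 0.0178), but rho was 0.643 (exact permutation p = 0.0962), and r was 0.523 without T1-4 and S1-4, so that this relation rests largely on those libraries. Over the 13 pairs, r without the 2 farthest libraries was between 0.52 and 0.97. Insm1 and Btg2 varied with each other (r = 0.859, exact permutation p = 0.0047, adjusted p = 0.0178, rho = 0.833, and r = 0.745 without T1-1 and S1-6). Of the 14 pairs that join Insm1 or Btg2 to the other 7 genes, 0 passed, and r was between −0.32 and 0.35. The libraries differed in depth and in markers of neighboring tissue as well as in treatment, and a group holds too few libraries for a correlation of its own.

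**Figure D3:**
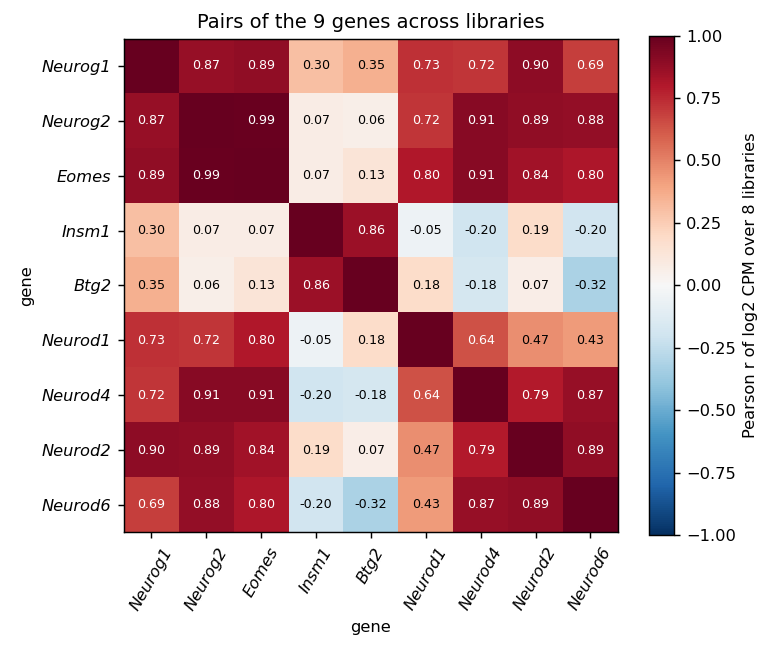
Pearson's r of log2 CPM over the 8 libraries for each pair of the 9 genes, from blue (−1) to red (1). Insm1 and Btg2 correlate with each other (0.86) and stand out as a pale cross against the other 7 genes, whose pairs lie between 0.43 and 0.99.

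The libraries that were low or high for these genes also differed in markers of the subpallium, which borders the pallium and makes interneurons from other progenitors. The summed CPM of the 9 genes was lowest in S1-4 (477) and T1-4 (685) and highest in S3-1 (1190) and S3-4 (1473). The summed CPM of 10 subpallial interneuron genes was highest in T1-4 (1172) and S1-4 (1101) and lowest in S3-1 (484) and S3-4 (545). T1-1 (1115 for the 9 genes and 852 for the subpallial genes), T1-3 (1077 and 555), T1-5 (829 and 793) and S1-6 (824 and 947) lay between, except that T1-3 was close to the lower end of the subpallial range. Between groups, 0 of the 10 subpallial genes were called, 8 were higher and 2 lower in IUGR (5 and 5 without T1-4, S3-1 or S3-4), and 1 had an unadjusted p under 0.05 by edgeR. None was at 0 in any group, with means of 297 ± 114 CPM in IUGR and 275 ± 125 in sham for Dlx1 and of 141 ± 52.4 and 141 ± 53.6 for Gad2 (SD, n = 4 each). The part of these cells in the spread of the 9 genes was not tested.

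Markers of tissue at the medial edge of the hippocampus differed between the groups. The summed CPM of 16 choroid plexus genes ranged from 66.3 to 1405 over the IUGR libraries and from 5899 to 12639 over the sham libraries. This sum also holds genes outside the count limits that were not tested, and the share of single genes in it was not examined. The summed CPM of 7 cortical hem genes ranged from 10.9 to 75.8 in IUGR and from 93.2 to 164 in sham. Of the 14 choroid plexus genes tested, 4 were called, all lower in IUGR, as were 3 of the 7 hem genes. With a library left out, 0 to 4 choroid plexus genes (0 without T1-1, S1-4, S3-1 or S3-4) and 1 to 4 hem genes were called, and every tested gene of both lists was lower in IUGR each time. Meningeal genes were high in T1-3, with a summed CPM of 2751 against 70.3 to 761 in the other 7 libraries. Without T1-3, the log2 fold changes of the 9 genes were between −0.74 (Neurod1) and 0.34 (Insm1), and 0 were called. The part of these tissues in the fold changes of the 9 genes was not tested.

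**Figure D4:**
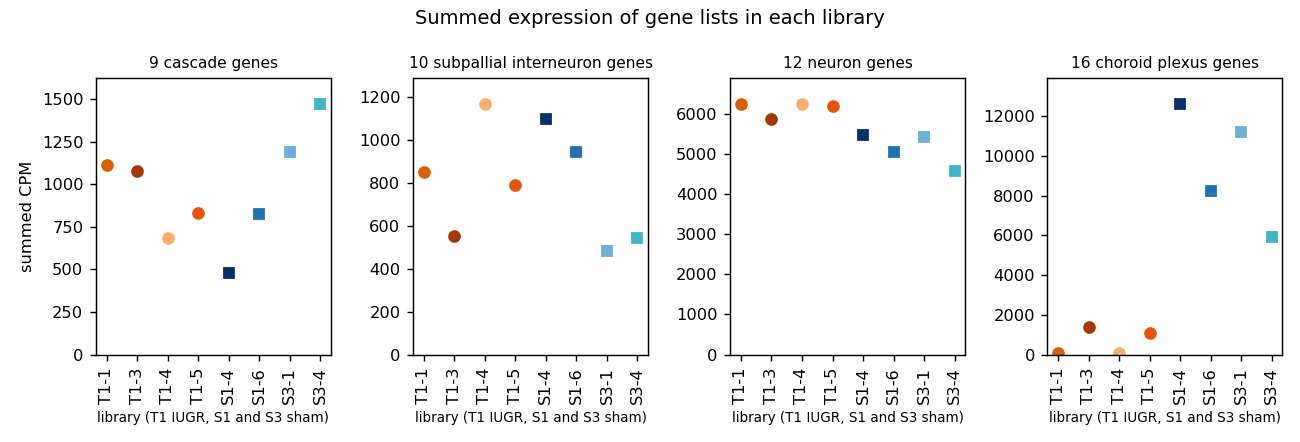
Summed CPM of the 9 genes and of 10 subpallial interneuron, 12 neuron and 16 choroid plexus genes in each library, on linear axes from 0, with IUGR as circles and sham as squares. S1-4 and T1-4 are lowest in the first panel and highest in the second, and the groups are apart in the third and the fourth panel only.

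The sham libraries of the S1 and S3 prefixes placed most of the 9 genes on opposite sides of the IUGR libraries. Against S1-4 and S1-6 alone, 8 of the 9 genes were higher in IUGR, and against S3-1 and S3-4 alone, 7 were lower. The sign differed between the comparisons for 6 genes. Neurod6 had a log2 fold change of 1.17 against the S1 libraries (unadjusted p = 0.0235, adjusted p = 0.478 by edgeR) and of −0.70 against the S3 libraries (unadjusted p = 0.05002, adjusted p = 0.516 by edgeR). Neurod2 had 1.05 and −0.24, Neurog2 0.64 and −0.76, and Eomes 0.51 and −0.73. Neurog1 had 0.70 and −0.46, and Neurod4 had 0.63 and −0.65. Insm1 (0.11 and 0.36), Btg2 (0.05 and 0.17) and Neurod1 (−0.25 and −0.87) kept their sign. An unadjusted p under 0.05 by edgeR was reached by 1 of the 9 genes against the S1 libraries (Neurod6), beside 7.8% of all genes tested there, and by 2 against the S3 libraries, beside 9.68%. These 2 were Neurod1 (unadjusted p = 0.0237, adjusted p = 0.402 by edgeR) and Neurog2 (unadjusted p = 0.0376, adjusted p = 0.476 by edgeR). None of the 9 was called in either comparison, in which 0 (S1) and 2 (S3) of all genes tested were called. The IUGR values of Neurod4 and Neurod6 all lay below both S3 libraries, or 2 of the 9 genes, beside 17.9% of all genes tested whose groups did not overlap in this smaller comparison. A comparison of 4 against 2 libraries cannot give an exact permutation p below 0.0667. The comparisons share the IUGR libraries, and all IUGR libraries carry the single prefix T1, so that prefix and treatment cannot be told apart there.

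**Figure D5:**
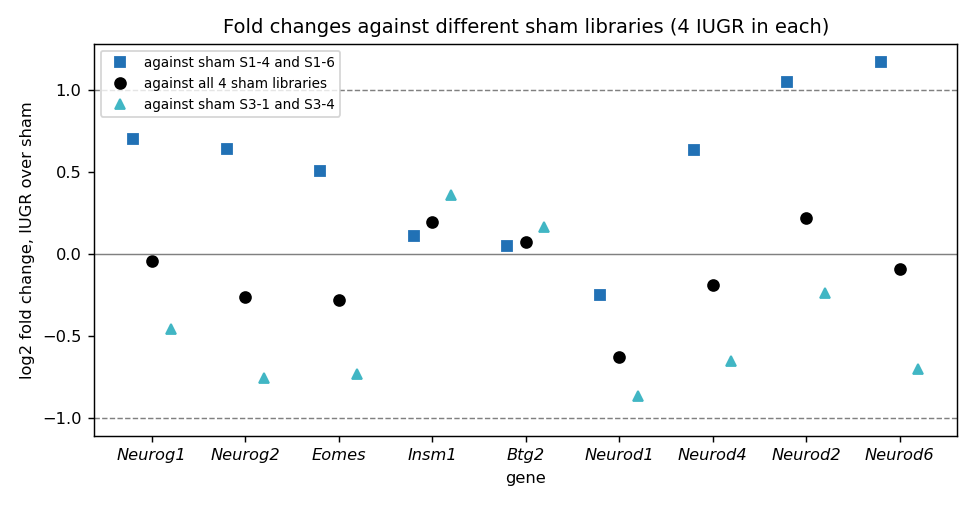
Log2 fold change of the 9 genes for the 4 IUGR libraries against the S1 sham libraries (squares), all 4 sham libraries (circles) and the S3 sham libraries (triangles), with dashed lines at −1 and 1. Squares lie above 0 and triangles below 0 for 6 genes, with the widest gap for Neurod6 (1.17 and −0.70).

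The balance between the end and the start of the relay was described inside each library, where scaling cancels. The log2 ratio of summed Neurod2 and Neurod6 counts to summed Neurog2 and Eomes counts was 0.22 (T1-1), 0.69 (T1-3), 0.18 (T1-4) and 0.67 (T1-5) in IUGR. In sham hippocampi it was −0.25 (S1-4), −0.05 (S1-6), 1.02 (S3-1) and −0.19 (S3-4). The ratio was above 0 in 4 of 4 IUGR libraries and in 1 of 4 sham libraries, but 0 is an arbitrary limit. The groups overlapped because S3-1 had the highest ratio of all. The means were 0.44 ± 0.28 in IUGR and 0.13 ± 0.60 in sham (SD, n = 4 each), a difference of 0.31 that is smaller than the SD in sham. It was 0.60 without S3-1 and 0.18 without S1-4, and it was 0.59 against the S1 libraries alone and 0.02 against the S3 libraries alone. The log2 ratio of Neurod6 to Eomes counts alone was above 0 in every library, from 0.52 to 1.31 in IUGR and 0.10 to 1.68 in sham. The difference between its group means was 0.30. No test was made of either ratio.

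No other gene of the pathway was called in the lists below. Of 12 other neural bHLH factors, 7 were tested, 0 were called, and 4 were lower and 3 higher in IUGR. Bhlhe22, a factor of projection neurons, had 131 ± 35.4 CPM in IUGR and 176 ± 89.3 in sham (SD, n = 4 each). The ends of the range were Nhlh1 (log2 fold change −0.83, adjusted p = 0.643 by edgeR) and Olig1 (1.22, adjusted p = 0.203 by edgeR), an oligodendrocyte lineage factor. Of the 3 E proteins that pair with these factors, 0 were called, with 799.9 ± 142 CPM in IUGR and 1151 ± 384 in sham for Tcf4 (SD, n = 4 each, log2 fold change −0.53, SE 0.22, adjusted p = 0.393 by edgeR). Tcf12 had 361 ± 45.7 CPM in IUGR and 357 ± 46.7 in sham (SD, n = 4 each). Of 8 antagonists of the Id, Hes and Hey families, 0 were called, 6 were lower and 2 higher, with a median log2 fold change of −0.25. With a library left out, 6 were lower each time, with medians between −0.31 (without T1-1) and −0.10 (without S3-4). Against the S1 libraries alone 3 were lower (median 0.04), and against the S3 libraries alone 7 were lower (median −0.33). Id4, the most abundant, had 232 ± 47.6 CPM in IUGR and 256 ± 48.4 in sham, and Id2 had 101 ± 41.2 and 84.9 ± 43.5 (SD, n = 4 each). An unadjusted p under 0.05 by edgeR was reached by 1 of the 7 other bHLH factors (Olig1), 1 of the 3 E proteins (Tcf4) and 0 of the 8 antagonists, beside 11.1% of all tested genes.

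Genes expressed before, beside and after the intermediate progenitor stage were placed around the 9. Of 12 other intermediate progenitor genes, 0 were called, 8 were lower and 4 higher, with log2 fold changes between −0.38 (Mfap4) and 0.31 (Elavl4). Without T1-3, 4 were lower and 8 higher. Elavl4, an RNA-binding protein of differentiating neurons, had 230 ± 24.1 CPM in IUGR and 185 ± 20.3 in sham (SD, n = 4 each, unadjusted p = 0.0331, adjusted p = 0.364 by edgeR), and Myt1 had 240 ± 59.5 and 218 ± 32.2. Of 12 radial glia genes, 0 were called, 9 were lower and 3 higher, with a median of −0.21. With a library left out, the median was between −0.28 (without T1-1) and −0.10 (without S3-4). Against the S1 libraries alone 6 were lower (median −0.003), and against the S3 libraries alone 10 were lower (median −0.14). Vim had 852 ± 123 CPM in IUGR and 1011 ± 168 in sham, and Nes had 783 ± 155 and 846 ± 172 (SD, n = 4 each). Of 10 cell cycle genes, 0 were called and 9 were lower, with log2 fold changes of −0.25 (Cdk1) to 0.002 (Aurkb). Top2a had 1717 ± 609 CPM in IUGR and 1810.3 ± 146 in sham, and Mki67 had 896 ± 309 and 992 ± 213 (SD, n = 4 each). The direction rested on T1-3, whose summed CPM of the 10 genes was 2301 against 3776 to 5153 in the other 7 libraries, and without it 3 of the 10 were lower and 7 higher. Of 12 genes of new neurons, 0 were called, 10 were higher and 2 lower, with a median of 0.18. An unadjusted p under 0.05 by edgeR was reached by 4 of the 12, beside 11.1% of all tested genes, with Stmn2, Map2 and Mef2c higher and Prox1 lower in IUGR. Their summed CPM ranged from 5875 to 6259 over the IUGR libraries and from 4581 to 5464 over the sham libraries, which did not overlap. Map2, which every neuron type expresses, was the only 1 of the 12 whose groups did not overlap (1766 ± 83.7 CPM in IUGR and 1468 ± 73.3 in sham, SD, n = 4 each, log2 fold change 0.27, adjusted p = 0.391 by edgeR), beside 7.14% of all tested genes. Tubb3, also of all neurons, had 1685 ± 148 CPM in IUGR and 1471 ± 364 in sham (SD, n = 4 each). The ends of the range were Mef2c (log2 fold change 1.01, adjusted p = 0.111 by edgeR) and Prox1, a factor of dentate granule cells (−0.56, adjusted p = 0.368 by edgeR). Tbr1, which follows Eomes in glutamatergic neurons, had 64.7 ± 30.1 CPM in IUGR and 42.5 ± 27.6 in sham (SD, n = 4 each, log2 fold change 0.60, adjusted p = 0.916 by edgeR). Its highest library was T1-3 (106 CPM). Tbr1 was chosen after its values were seen. Without T1-4, 1 of the 12 neuron genes, Mef2c, was called. Most markers of several other cell types also had positive log2 fold changes, with 0 called in each list. Of the genes tested, these were 6 of 8 for Cajal-Retzius cells, early neurons of the marginal zone (median log2 fold change 0.38), 6 of 7 for endothelium (0.57), 8 of 8 for meninges (1.20), 8 of 8 for microglia (0.26) and 8 of 8 for red blood cells (0.43). T1-3 had the highest summed CPM of the Cajal-Retzius genes (1354 against 345 to 972 in the other 7 libraries), and without it 1 of 8 microglia and 3 of 8 meningeal genes were higher. Without T1-3 the medians were 0.13 for Cajal-Retzius cells, 0.38 for endothelium, −0.02 for meninges, −0.05 for microglia and 0.30 for red blood cells. The median for red blood cells was 0.73 without T1-4. Thalamic genes went the other way, with 6 of 7 tested genes lower in IUGR (median log2 fold change −0.69), 0 called and 3 with an unadjusted p under 0.05 by edgeR. Their summed CPM was highest in S3-1 (67.5 against 15.5 to 36.2 in the other 7 libraries), and without S3-1 4 of 6 tested genes were lower. With a library left out, the thalamic median was between −1.03 (without S3-4) and −0.27 (without S3-1). Without S3-1 or without T1-4, 0 thalamic genes had an unadjusted p under 0.05 by edgeR. The part of these cells in the levels of the neuron genes and in the late to early ratio of S3-1 was not tested.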

How the data were processed

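RNA of 4 IUGR and 4 sham hippocampi, depleted of ribosomal RNA, was made into stranded libraries and read from one end. The authors deposited unnormalized read counts for each gene and library. The submitters' processing notes name Novoalign 2.8 and mm10. The counting program, annotation release and strand setting are not given in the sources used here.

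Identifiers were matched to GENCODE M21 (16124 of 16397). The 13707 protein-coding genes whose counts averaged 10 or more and below 50000 were tested with edgeR 4.0.16 under R 4.3.3 (TMM, quasi-likelihood test), and p-values were adjusted by Benjamini-Hochberg over these genes. Library sizes were recomputed over the tested genes. Standard errors and 95% intervals come from the F statistic. Log2 CPM had a prior count of 2. The fits by edgeR, DESeq2 and limma-voom were tested on simulated counts. Alternatives were other scalings, DESeq2 1.42.0, limma-voom (limma 3.58.1), other filters, all biotypes, each library left out and the sham prefixes apart. In all 12 pairs of libraries of a group, counts differed beyond sampling noise (chi-square per degree of freedom 27.7 to 73.8).

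The 9 genes and the lists were chosen with earlier results of these data known. Named genes are the 9, the 2 most abundant genes of the lists of the pathway and of neighboring stages and of the subpallial list, and those at the ends of a range. Stmn2 and Tbr1 were added after their values were seen. A gene that this rule names is not reported here. The choroid plexus, hem and meninges lists are given by counts or summed levels. Promoter sequences are RefSeq's.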

Additional observations from a re-analysis of the deposited data

Results flagged for a closer look

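In 20 sets of 4 values (the CPM of each of the 9 genes and the late to early ratio, in each group), the gap between the most extreme library and its nearest neighbor was compared with Dixon's 95% critical value for that size, and 3 sets passed it. Chance alone gives about 1 such set in 20. Insm1 in sham hippocampi had a high value in S1-6 (130 CPM, gap 0.834 of the range). Neurod4 in IUGR hippocampi had a low value in T1-4 (9.10 CPM, gap 0.890 of the range). The late to early log2 ratio in sham hippocampi had a high value in S3-1 (1.02, gap 0.843 of the range).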

How the results depend on the processing

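None of the 9 genes was called, with or without the fold limit, in any alternative, and the lowest adjusted p was 0.365 (Neurod1, DESeq2). The number of all genes called moved from 200 to 425 with DESeq2, 328 with limma-voom, 73 with a mean count of at least 50, 0 with the S1 and 2 with the S3 sham libraries alone, and to between 24 (without S1-4) and 302 (without T1-5) with a library left out. Insm1 and Neurod1 kept their sign in all 19 alternatives, and the other 7 genes did not. Neurod6 was 0.19 with limma-voom and Neurog1 0.0020 with filterByExpr. Against the S1 libraries alone, Neurog1 (0.70), Neurog2 (0.64), Eomes (0.51), Neurod4 (0.63) and Neurod6 (1.17) changed sign, and against the S3 libraries alone Neurod2 did (−0.24). The cause was not tested. With a library left out, log2 fold changes were between −0.37 and 0.36 (Neurog1), −0.52 and 0.23 (Neurog2), −0.50 and 0.24 (Eomes), −0.025 and 0.18 (Btg2), −0.36 and 0.21 (Neurod4), −0.035 and 0.49 (Neurod2) and −0.37 and 0.30 (Neurod6). With the S3 libraries alone, 2 genes (Neurod4 and Neurod6) no longer overlapped, against 0 in the whole set, while the share over all tested genes was 17.9% against 7.14%. The lists were also counted with fewer libraries, an alternative chosen after seeing the data. Neurog1 had too few reads for the filter at a mean count of 50. No paired analysis was possible because replicate numbers follow accession order, and nothing in the labels says that samples whose names end in the same number share a dam, litter or day.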
